A study of Mus musculus with 6 samples.

Results

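The antioxidant and redox enzymes of hepatocytes were compared between cells of high and of low telomerase expression. The genes were taken by symbol alone: glutathione peroxidases, peroxiredoxins, superoxide dismutases, thioredoxins with their reductases and relatives, glutaredoxins, glutathione synthesis enzymes, catalase, metallothioneins 1 and 2, methionine sulfoxide reductases, the cytochrome b5 system, and the NRF2 regulator with its inhibitor KEAP1 and classical targets. They were 53 of the 15565 genes in the count table, and 51 of the 13288 genes that passed the expression filter. Gpx2 and Gpx8 did not pass, with 0 to 9 and 1 to 7 counts per library. The study sorted hepatocytes of 3 C57BL/6 mice aged 2 months, freed by collagenase perfusion, into TERT(High) and TERT(Low) populations and sequenced their polyadenylated RNA. Both populations came from each mouse, so the 6 libraries form 2 groups of 3. All mice had the genotype Tert(CreERT2/+); R26(LSL-Tomato/+), that is, a tamoxifen-inducible Cre recombinase at 1 allele of Tert together with a Tomato reporter that Cre switches on at 1 allele of R26. The recombinase is therefore driven from the Tert locus, and both groups carry both alleles, so there is no group without them.

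Cells make superoxide and hydrogen peroxide as by-products of respiration and of oxidase reactions, and in hepatocytes peroxisomes and cytochrome P450 enzymes are further sources. Superoxide dismutases turn superoxide into hydrogen peroxide, which catalase, glutathione peroxidases and peroxiredoxins then break down. Glutathione peroxidases draw electrons from glutathione and peroxiredoxins mostly from thioredoxin, and both carriers are recharged by NADPH-dependent reductases. The transcription factor NRF2, encoded by Nfe2l2, raises many of these genes under oxidative stress and is otherwise marked for degradation by KEAP1.

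The label hepatocyte was met by its markers: 12 hepatocyte marker genes summed to between 136600 and 167800 counts per 1e6 counts (CPM, scaled by TMM) in the 6 libraries. Library totals ran from 53.6 to 76.2 in units of 1e6 counts. Tert had 30 to 38 counts in the TERT(High) and 12 to 21 counts in the TERT(Low) libraries, few in either group. Markers of other cell types were low but not level. The 12 stellate cell and fibroblast markers summed to 248 CPM in the TERT(High) library of mouse 1 and to between 5.50 and 14.6 CPM elsewhere. Most of the 248 CPM came from the collagen genes Col1a1 (127 CPM) and Col1a2 (105 CPM). Reln and Col3a1 had 7.98 and 3.46 CPM there, and Lrat, Des and Pdgfrb 0.408, 0.114 and 0.245 CPM. The 9 red cell markers summed to 259 CPM in that library and to between 19.5 and 68.8 CPM elsewhere. Hba-a1 and Hba-a2 had the same counts in every library, as had Hbb-bs and Hbb-b1, so this sum may hold the same reads more than once. The 14 Kupffer cell and macrophage markers summed to 28.3, 25.1 and 126 CPM for TERT(High) libraries in the order of mice 1, 2 and 3 and to 24.6, 19.8 and 56.7 CPM in the TERT(Low) cells. The 12 endothelial markers summed to between 44.7 and 76.5 CPM in TERT(High) and between 33.7 and 41.1 CPM in TERT(Low) libraries, so those groups did not overlap. Neutrophil, cholangiocyte and lymphocyte markers each summed to at most 15.8 CPM in any library. Of 7 tested neutrophil genes, 5 had TERT(High) values wholly above the TERT(Low) values and 1 wholly below, beside 17.5% and 15.9% of all genes. Across all the marker genes 2 of 12 tested endothelial and 1 of 14 tested Kupffer cell genes rose by edgeR. No gene of the other marker lists rose and no marker gene fell, where 4.43% of all genes rose and 3.71% fell. Counts of 5 lymphocyte, 4 cholangiocyte, 1 neutrophil and 1 red cell marker of the lists were not analysed here, and the part of the marker genes in the results was not tested. Within bulk RNA, fewer cells of a type and less RNA per cell cannot be told apart.

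TERT(High) hepatocytes held less RNA of 6 redox enzymes, and no redox enzyme was higher past the test. The 6 were the glutathione peroxidase Gpx4, the peroxiredoxins Prdx5 and Prdx2, the superoxide dismutase Sod1, the haem protein Cyb5a and the glutaredoxin Glrx, with levels in TERT(Low) cells from 1.61 to 1.99 times those in TERT(High) cells. With a threshold of 0.05 on the Benjamini-Hochberg adjusted p of edgeR's quasi-likelihood fit, 6 of 51 redox genes fell (11.8%), where 3.71% of all 13288 genes fell. In the other direction 0 of 51 rose, where 4.43% of all genes rose. At an unadjusted p under 0.05, 20 redox genes were lower, against 12.4% of all genes, and 2 were higher (Nfe2l2 and Txnrd1), against 16.3% of all genes. The 3 TERT(High) values lay wholly below the 3 TERT(Low) values for 20 redox genes (39.2%), where 15.9% of all genes did so. They lay wholly above for 3 genes, Nfe2l2, Txnrd1 and Txndc16, where 17.5% of all genes did so. In 27 of the 51 (52.9%) the level was lower in TERT(High) cells of all 3 mice, against 26.6% of all genes.

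As a description of the whole list, the median log2 fold change of TERT(High) over TERT(Low) was -0.28 over the 51 tested redox genes and -0.013 over all tested genes. It was -0.26, -0.29 and -0.38 within mice 1, 2 and 3. Summed over the redox genes, the level was 11060, 11030 and 10400 CPM for TERT(High) libraries in the order of mice 1, 2 and 3 and 14010, 14120 and 15670 CPM in the TERT(Low) cells. The sums of the groups did not overlap. With DESeq2 the counts were larger: 14 redox genes were lower and 2 higher at adjusted p under 0.05, where 9.6% of all genes were lower and 11.3% higher. With the mouse as a block in edgeR, 8 redox genes were lower, where 4.3% of all genes were, the added genes being Gpx1 (adjusted p = 0.0474) and Prdx4 (adjusted p = 0.0436).

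**Figure D1:**
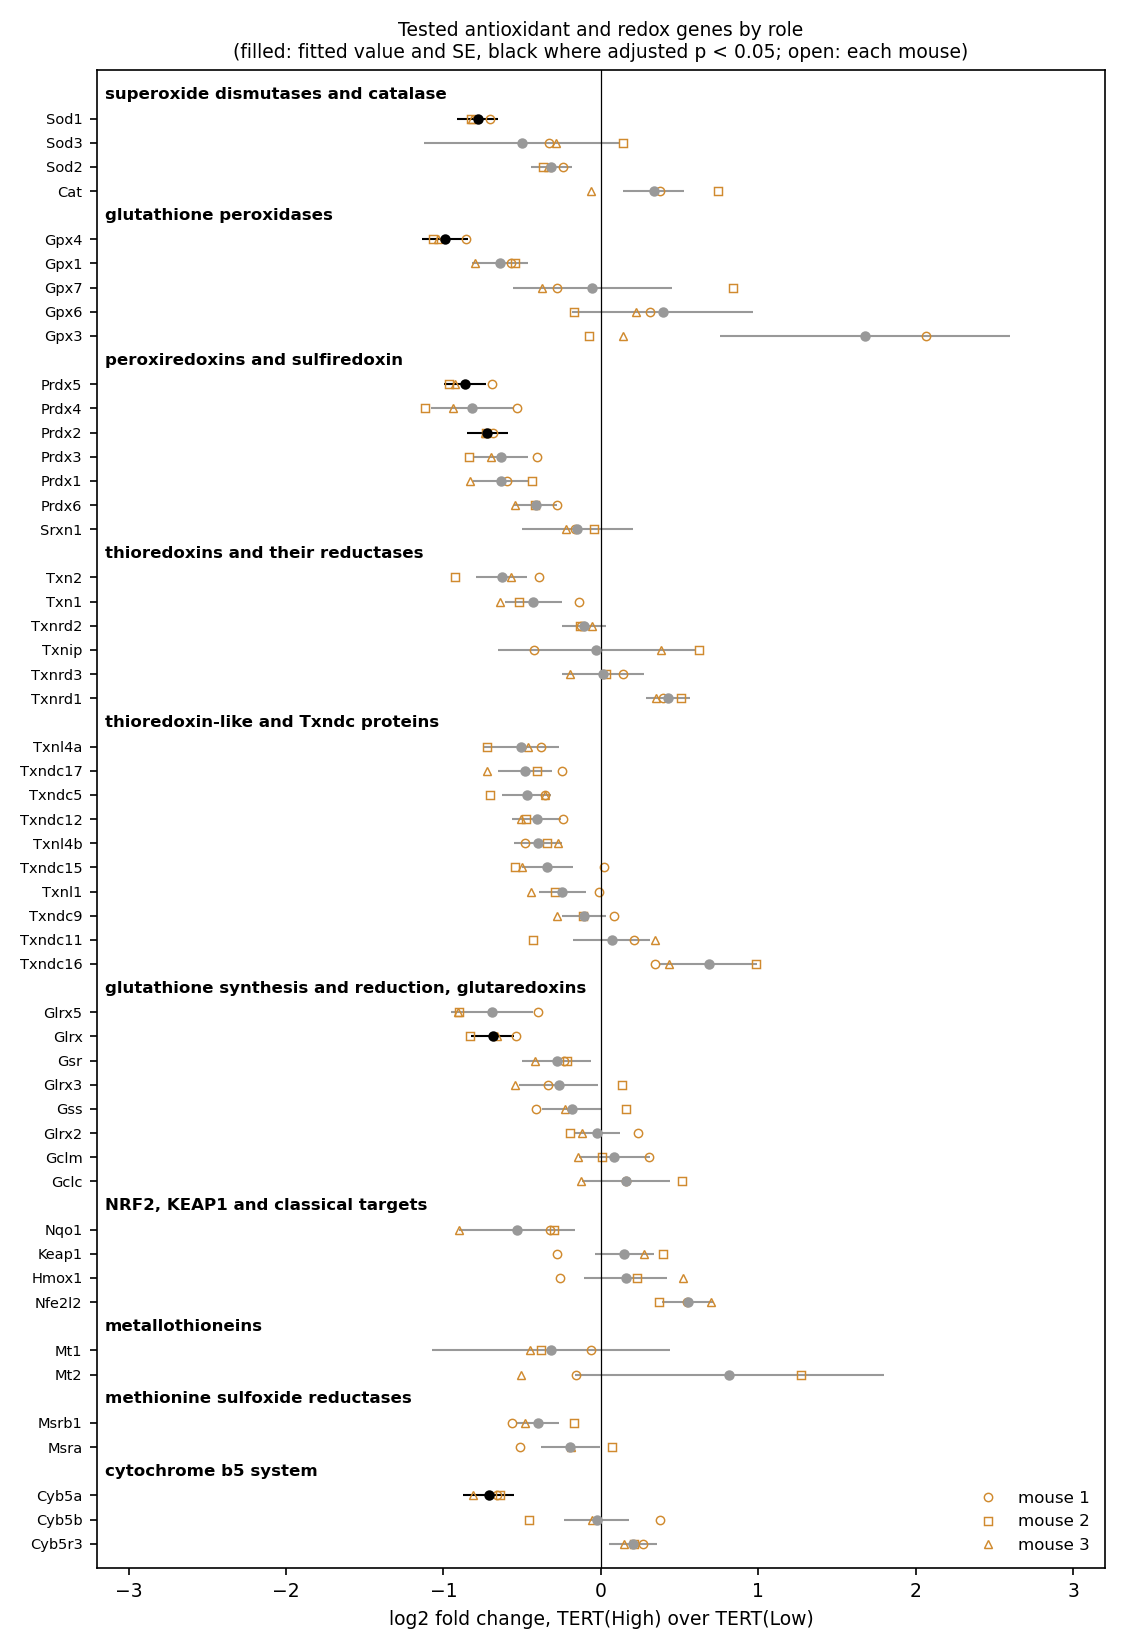
Log2 fold change of TERT(High) over TERT(Low) for the 51 tested redox genes, grouped by role. Filled points are the edgeR estimates with their standard errors, black for the 6 genes with adjusted p under 0.05, and open symbols are the differences within each mouse. All 7 genes of the peroxiredoxin and sulfiredoxin group lie to the left of 0 in every mouse, as do 26.6% of all tested genes. Mt2, Gpx3, Mt1 and Txnip have the largest standard errors.

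Gene length moved with these differences. Redox enzymes are short: the median coding length of the tested redox genes was 678 nt, of the 6 that fell 528 nt, and of all tested genes 1395 nt. Across 12548 genes with a coding length, Spearman's rho between that length and the log2 fold change was 0.52, and across the 51 redox genes 0.45, both of them descriptions across genes that share the same 6 libraries. Among the 40 redox genes with coding sequences shorter than 1395 nt, 6 fell (15.0%) and the median log2 fold change was -0.41. All 6251 tested genes below that length had 457 lower calls (7.31%) and a median of -0.27. The 11 redox genes at or above that length had 0 lower calls and a median of 0.15, beside 13 lower calls and a median of 0.36 for the 6297 genes of such length. Higher calls numbered 0 among the redox genes of either length class, 30 (0.48%) among all shorter genes and 555 (8.81%) among all longer ones. A correction for coding length and GC content, added after seeing the data, was fitted to the 12548 genes with a length. After it no redox gene and no other gene passed edgeR's adjusted p, and the median of the redox genes was -0.026. The 6 genes then had log2 fold changes of -0.53 (Gpx4), -0.39 (Prdx5), -0.33 (Prdx2), -0.32 (Glrx), -0.28 (Cyb5a) and -0.25 (Sod1), each smaller than before by more than 1.5 times, and edgeR adjusted p between 0.467 and 0.623. At an unadjusted p below 0.05, 3 redox genes were then lower, where 2.77% of all genes were, and 2 higher, where 7.2% of all genes were. After a correction for transcript length and GC content the calls were also 0, and the median was -0.18. At an unadjusted p below 0.05, 7 redox genes were lower there, against 4.35% of all genes, and 2 higher, against 8.79%. By that correction the log2 fold change was -0.52 for Gpx4 and -0.19 for Sod1.

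**Figure D2:**
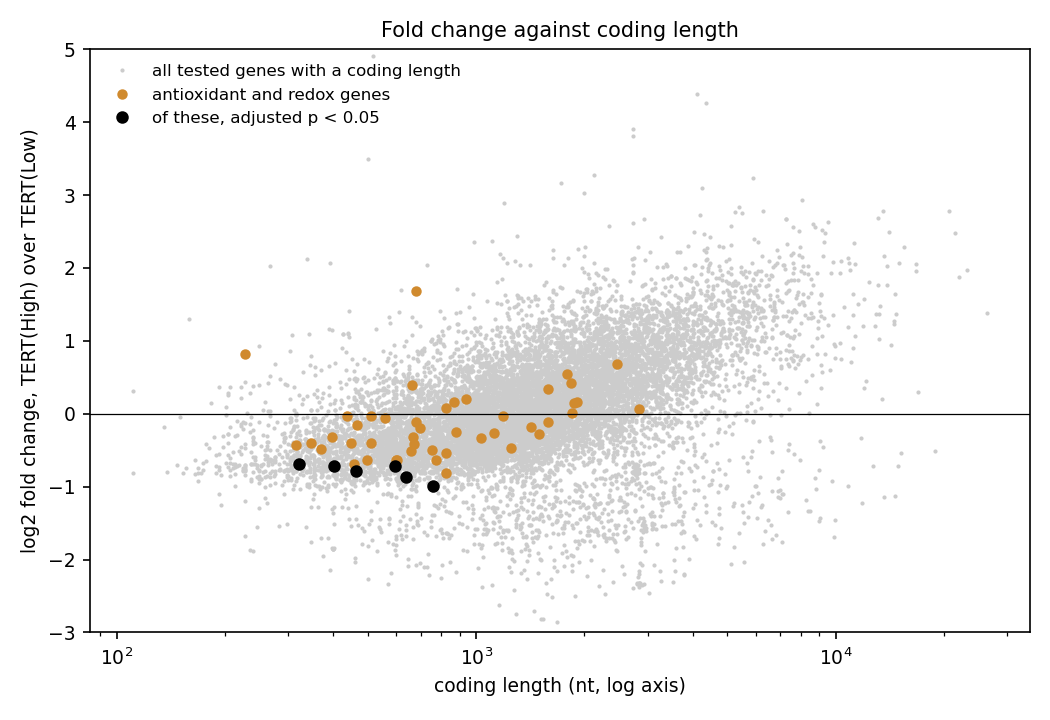
Log2 fold change of TERT(High) over TERT(Low) against coding length on a log axis. Grey points are all tested genes with a coding length, orange points the redox genes and black points the 6 of them with adjusted p under 0.05. The 6 black points lie on the short side, around a median of 528 nt, inside the cloud of other genes of their length.

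The calls also changed with the libraries that entered the fit. With any library other than the TERT(High) library of mouse 1 left out, or with both libraries of any mouse left out, 0 redox genes passed by edgeR, the lowest adjusted p among them was between 0.0750 and 0.309, and 7 to 19 were lower at an unadjusted p below 0.05, where 5.47% to 11.4% of all genes were. Without the TERT(High) library of mouse 1, which had the most collagen and red cell marker RNA, 9 redox genes passed, all of them lower. In that fit 5.21% of all genes were lower and 6.85% higher. The 9 redox genes included 5 of the 6 (all but Cyb5a) and added Glrx5, Prdx3, Prdx4 and Txn2. All 6 kept their sign in each of the 22 alternatives. Since their TERT(High) values lay wholly below their TERT(Low) values, fits without a library or mouse had little room to turn a sign.

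The peroxiredoxins, thiol peroxidases that reduce hydrogen peroxide and organic peroxides, included 2 of the 6 genes that fell, Prdx5 and Prdx2, while Prdx1, Prdx3, Prdx4, Prdx6 and the sulfiredoxin Srxn1 did not pass. All 6 peroxiredoxins and Srxn1, which repairs over-oxidised peroxiredoxins, had lower values in TERT(High) cells of all 3 mice, and their median log2 fold change was -0.64. The share lower in all 3 mice was 26.6% over all genes and 43.9% over genes with coding sequences shorter than 1395 nt. All 7 genes of this group are that short. Prdx5 (chromosome 19, 6906697 to 6910106), found in mitochondria, peroxisomes and cytosol, had 163, 154 and 143 CPM for TERT(High) libraries in the order of mice 1, 2 and 3 and 264, 300.3 and 273 CPM in their TERT(Low) cells. Every TERT(High) library lay below every TERT(Low) library. The means were 153 ± 9.81 and 279 ± 19.0 CPM (SD, n = 3), and the log2 fold change was -0.86 with an SE of 0.13 (adjusted p = 0.0277). Its gene overlaps that of Trmt112, which itself had 1058 to 2063 counts, and since the strand setting of the counting is not given, reads of the overlap cannot be assigned. Prdx2 (chromosome 8, 84969622 to 84974811), a cytosolic enzyme abundant in red blood cells, had 87.0, 95.3 and 94.4 CPM in TERT(High) and 140.3, 158 and 158 CPM in TERT(Low) cells. These groups too were fully apart, with means of 92.2 ± 4.54 and 152 ± 10.2 CPM (SD, n = 3), and the log2 fold change was -0.72 with an SE of 0.13 (adjusted p = 0.0321). The library with the most red cell marker RNA, TERT(High) of mouse 1, had 87.0 CPM, and a part of red cell RNA in the Prdx2 values was not tested.

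Prdx1, the most abundant peroxiredoxin per kilobase of transcript, had 1033, 880 and 927 CPM in TERT(High) and 1562, 1192 and 1648 CPM in TERT(Low) cells. No value of 1 group reached the other, yet the difference (log2 fold change -0.63, SE 0.18) did not pass, with adjusted p = 0.0724. Prdx3, the mitochondrial peroxiredoxin, had 122, 89.5 and 88.0 CPM against 162, 161 and 143 CPM (adjusted p = 0.0679). For Prdx4, which works in the endoplasmic reticulum, the values were 165, 85.8 and 104 CPM against 238, 187 and 199 CPM, apart as well (log2 fold change -0.82, SE 0.26, adjusted p = 0.0973, and 0.0436 with the mouse as a block). Prdx6, which reduces phospholipid peroxides and uses glutathione, had 529, 463 and 458 CPM against 643, 619 and 670 CPM (log2 fold change -0.41, SE 0.14, adjusted p = 0.103). Srxn1 differed from these: its 50.8, 28.7 and 27.0 CPM in TERT(High) and 57.0, 29.6 and 31.6 CPM in TERT(Low) cells overlapped, and mouse 1 was high in both populations. After the coding length and GC correction the log2 fold changes were -0.58 (Prdx1), -0.54 (Prdx3), -0.53 (Prdx4), -0.16 (Prdx6) and 0.40 (Srxn1). With transcript length in place of coding length they were -0.75, -0.50, -0.39, -0.38 and -0.020 in the same order. None passed the adjusted threshold by either correction. RefSeq lists processed or duplicated copies of Prdx1, Prdx2 and Prdx6, and how multiply mapping reads were counted is not given.

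**Figure D3:**
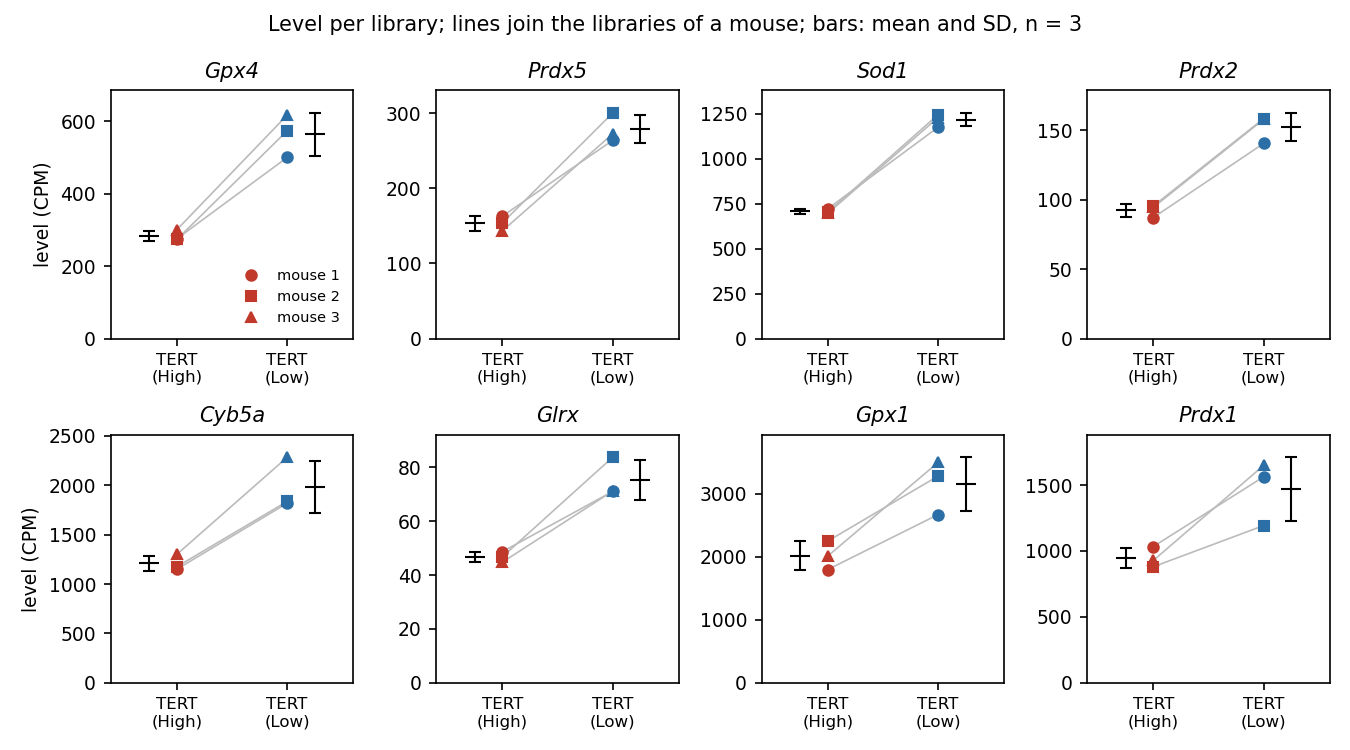
Level in CPM of the 6 redox genes that fell, and of Gpx1 and Prdx1, in each library. Grey lines join the TERT(High) (red) and TERT(Low) (blue) libraries of a mouse, and bars are mean and SD of 3 libraries. In all 8 panels each mouse has the lower value in TERT(High) cells and the groups do not overlap.

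Among glutathione peroxidases, Gpx4 was the one past the test and Gpx1 the most abundant. Both are selenoproteins: a TGA codon, which ordinarily ends translation, is read as selenocysteine in the active site. The stretches around that codon are shown for Gpx4, Gpx1, the methionine sulfoxide reductase Msrb1 and the thioredoxin reductase Txnrd1, because these 4 selenoprotein RNAs did not all differ in the same direction. They are coding-strand sequences of GENCODE M21 transcripts on GRCm38, 5′ to 3′, with the selenocysteine codon in capitals, for Gpx4 from chr10:80054716-80054760, Gpx1 from chr9:108339430-108339474, Msrb1 from chr17:24740137-24740181 and Txnrd1 from chr10:82896016-82896045, all on the plus strand.
Gpx4: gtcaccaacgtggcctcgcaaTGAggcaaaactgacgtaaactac
Gpx1: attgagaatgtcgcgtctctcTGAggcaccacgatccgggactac
Msrb1: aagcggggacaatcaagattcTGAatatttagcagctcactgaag
Txnrd1: gacatcctccagtctggctgcTGAggttaa
In Txnrd1 the codon is the last but 1 before the stop codon, and in the others it lies further inside the coding sequence.

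Gpx4 (chromosome 10, 80047166 to 80056439), which reduces lipid peroxides within membranes and guards cells against ferroptosis, had 276, 274 and 301 CPM for TERT(High) libraries in the order of mice 1, 2 and 3 and 500.2, 574 and 617 CPM in TERT(Low) cells. The groups were fully apart, and the within-mouse log2 differences were -0.86, -1.07 and -1.04. Means were 283 ± 15.1 and 564 ± 59.1 CPM (SD, n = 3), and the log2 fold change was -0.99 with an SE of 0.15 (adjusted p = 0.0277). It was the only redox gene that stayed past the threshold when libraries were scaled by their totals alone (adjusted p = 0.0442). RefSeq lists 2 Gpx4 pseudogenes. Gpx1, the main cytosolic and mitochondrial glutathione peroxidase of liver, had 1799, 2251 and 2013 CPM in TERT(High) and 2672, 3284 and 3501 CPM in TERT(Low) cells. No values overlapped, but the difference of -0.64 in log2 (SE 0.18) did not pass, with adjusted p = 0.0688, and was -0.13 after the coding length and GC correction. Per kilobase of transcript Gpx1 had the highest level of all redox genes, 1885 CPM per kb in TERT(High) and 2941 CPM per kb in TERT(Low) cells. The remaining glutathione peroxidases were scarce in every library. Gpx7 had 0.611 to 2.49 CPM and Gpx6 0.149 to 0.395 CPM. The secreted enzyme Gpx3 had 1.99, 0.248 and 0.618 CPM in TERT(High) and 0.0954, 0.286 and 0.512 CPM in TERT(Low) cells (log2 fold change 1.68, SE 0.92, adjusted p = 0.286). Its high value was in the library of mouse 1 with raised collagen and red cell marker RNA. The other 2 mice had similar values in both populations.

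Superoxide dismutase and catalase, successive steps from superoxide to water, did not differ alike. Sod1 (chromosome 16, 90220762 to 90226333), the cytosolic copper-zinc enzyme, had 721, 702 and 696 CPM in TERT(High) and 1174, 1244 and 1228 CPM in TERT(Low) cells. Both groups were narrow and far apart: 706 ± 13.2 and 1216 ± 36.9 CPM (SD, n = 3), and the log2 fold change was -0.78 with an SE of 0.13 (adjusted p = 0.0277). Sod2, the mitochondrial manganese enzyme, had 154, 151 and 137 CPM against 183, 195 and 173 CPM, also without overlap (log2 fold change -0.32, SE 0.13, adjusted p = 0.171). Its log2 fold change was -0.32 after the coding length and GC correction and -0.94 after that for transcript length, neither past the adjusted threshold. Catalase (Cat), the peroxisomal enzyme that splits hydrogen peroxide, had 1849, 1854 and 1610 CPM in TERT(High) and 1422, 1110 and 1679 CPM in TERT(Low) cells (log2 fold change 0.34, SE 0.19, adjusted p = 0.309). In mice 1 and 2 it was higher in the TERT(High) cells, and in mouse 3 near level. Because a ratio of 2 genes in the same library needs no scaling, Sod1 counts were also divided by Cat counts, a ratio chosen after seeing the data. The result was 0.390, 0.379 and 0.432 in TERT(High) and 0.825, 1.12 and 0.731 in TERT(Low) libraries. Since Sod1 was clearly lower in TERT(High) cells of each mouse and Cat higher or near level, the ratio had to be lower in each mouse. It adds no separate result. Cat has a coding sequence of 1581 nt and Sod1 of 462 nt, and a ratio within a library does not remove a trend with length. After the coding length and GC correction the log2 fold changes were 0.27 for Cat and -0.25 for Sod1, neither past the adjusted threshold. The extracellular enzyme Sod3 stayed below 0.48 CPM in all libraries.

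Thioredoxins were lower and the cytosolic thioredoxin reductase was higher, though none past the adjusted threshold. Txn1, the cytosolic thioredoxin, had 184, 133 and 157 CPM in TERT(High) and 203, 191 and 245 CPM in TERT(Low) cells (log2 fold change -0.43, SE 0.18, adjusted p = 0.173). Txn2, its mitochondrial counterpart, had 137, 111 and 113 CPM against 180, 212 and 169 CPM (log2 fold change -0.63, SE 0.16, adjusted p = 0.0579, and 0.00324 by DESeq2). Both genes had groups that did not overlap, and after the coding length and GC correction their log2 fold changes were -0.010 and -0.11. Txnrd1, the selenoenzyme that recharges cytosolic thioredoxin, went the other way with 79.8, 91.4 and 73.4 CPM in TERT(High) and 60.5, 64.0 and 57.5 CPM in TERT(Low) cells. Its TERT(High) values were all above the TERT(Low) values (log2 fold change 0.43, SE 0.14, adjusted p = 0.105, and 0.0467 by DESeq2). The ratio of Gpx4 to Txnrd1 counts within a library was again chosen after seeing the data. It was 3.45, 2.99 and 4.09 in TERT(High) and 8.26, 8.96 and 10.7 in TERT(Low) libraries. Since Gpx4 was wholly below and Txnrd1 wholly above in TERT(High) cells, these ratios had to be apart and add no separate result. Txnrd3, the testis-rich reductase, had 2.61 to 4.52 CPM with overlapping groups.

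Of the 10 thioredoxin-like and Txndc genes, which encode proteins with a thioredoxin fold, none passed edgeR's adjusted test. In that fit 4 had a lower level with unadjusted p below 0.05, against 12.4% of all genes. Txndc5 passed as lower by DESeq2, where 9.6% of all genes did. TERT(High) values lay wholly below the TERT(Low) values for 4 genes: Txndc5, Txndc17, Txndc12 and Txnl4b. So did 15.9% of all genes, and 28.6% of those with coding sequences shorter than 1395 nt, the class of these 4. Txndc5, a disulfide isomerase of the endoplasmic reticulum, had 199.5, 155 and 171 CPM against 256, 254 and 219 CPM (log2 fold change -0.47, SE 0.16, adjusted p = 0.103). For Txndc17 the values were 38.4, 38.1 and 39.4 CPM against 45.7, 50.8 and 65.4 CPM (adjusted p = 0.117). Txndc16, at 2.43, 2.79 and 3.35 CPM against 1.81, 1.17 and 2.35 CPM, was the member of this family wholly above (log2 fold change 0.68, SE 0.31, adjusted p = 0.204). Its coding sequence of 2460 nt is far longer than those of Txndc17 (369 nt) and Txnl4b (447 nt). Txnl4b went from a log2 fold change of -0.40 to 0.064 with the coding length and GC correction. Txndc15, the second most abundant per kilobase, had 83.6, 68.9 and 63.2 CPM against 82.3, 101 and 89.9 CPM, with overlap.

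Glutathione synthesis and reduction showed no difference past the test, while a glutaredoxin did. Glrx (chromosome 13, 75839885 to 75850151), which removes glutathione from protein thiols, had 48.7, 46.8 and 44.8 CPM in TERT(High) and 71.1, 83.8 and 71.2 CPM in TERT(Low) cells. All TERT(High) libraries were below all TERT(Low) libraries, at 46.8 ± 1.95 and 75.4 ± 7.29 CPM (SD, n = 3), and the log2 fold change was -0.69 with an SE of 0.14 (adjusted p = 0.0364). Glrx5, a mitochondrial protein of iron-sulfur cluster assembly, had 103, 57.4 and 58.3 CPM against 135, 108 and 110 CPM, lower in each mouse and wholly apart (log2 fold change -0.69, SE 0.26, adjusted p = 0.139). Glrx2 and Glrx3 had log2 fold changes of -0.027 and -0.27 with overlapping groups. Gclc, the catalytic subunit of the rate-limiting glutathione synthesis enzyme, had 257, 175 and 171 CPM in TERT(High) and 229.5, 122 and 187 CPM in TERT(Low) cells, and its modifier subunit Gclm had 164, 103 and 102 CPM against 132, 103 and 113 CPM. Both were highest in mouse 1, in either population, and their groups overlapped. Gss, which adds glycine in the last step, had 93.2, 90.3 and 98.8 CPM against 124, 80.7 and 116 CPM. Gsr, the reductase that recycles oxidised glutathione, had 72.6, 56.1 and 46.5 CPM against 85.4, 65.1 and 62.5 CPM, lower in each mouse but overlapping between mice (adjusted p = 0.451).

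The RNA of NRF2 itself was higher in the TERT(High) cells of every mouse while its classical targets had no common direction. Nfe2l2 had 36.5, 37.0 and 46.8 CPM in TERT(High) and 24.9, 28.6 and 28.7 CPM in TERT(Low) cells, without overlap. By edgeR the log2 fold change 0.55 with an SE of 0.16 did not pass (adjusted p = 0.0772), by DESeq2 it did (0.0163), and after the coding length and GC correction it was 0.29 with an SE of 0.18 (edgeR adjusted p = 0.612). Keap1, which holds NRF2 for degradation, had 23.5, 35.8 and 31.5 CPM against 28.7, 27.1 and 26.0 CPM, with mouse 1 opposite to the others. Nqo1, a quinone reductase widely used as a readout of NRF2 activity, had 23.3, 11.4 and 15.0 CPM against 29.3, 14.2 and 28.4 CPM, lower in TERT(High) cells of each mouse but overlapping (log2 fold change -0.53, SE 0.37, adjusted p = 0.396). Hmox1, the inducible haem oxygenase, had 5.03, 4.29 and 6.04 CPM against 6.12, 3.59 and 4.06 CPM. Txnrd1 was above, and Srxn1, Gclc and Gclm overlapped, as given with their families.

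**Figure D4:**
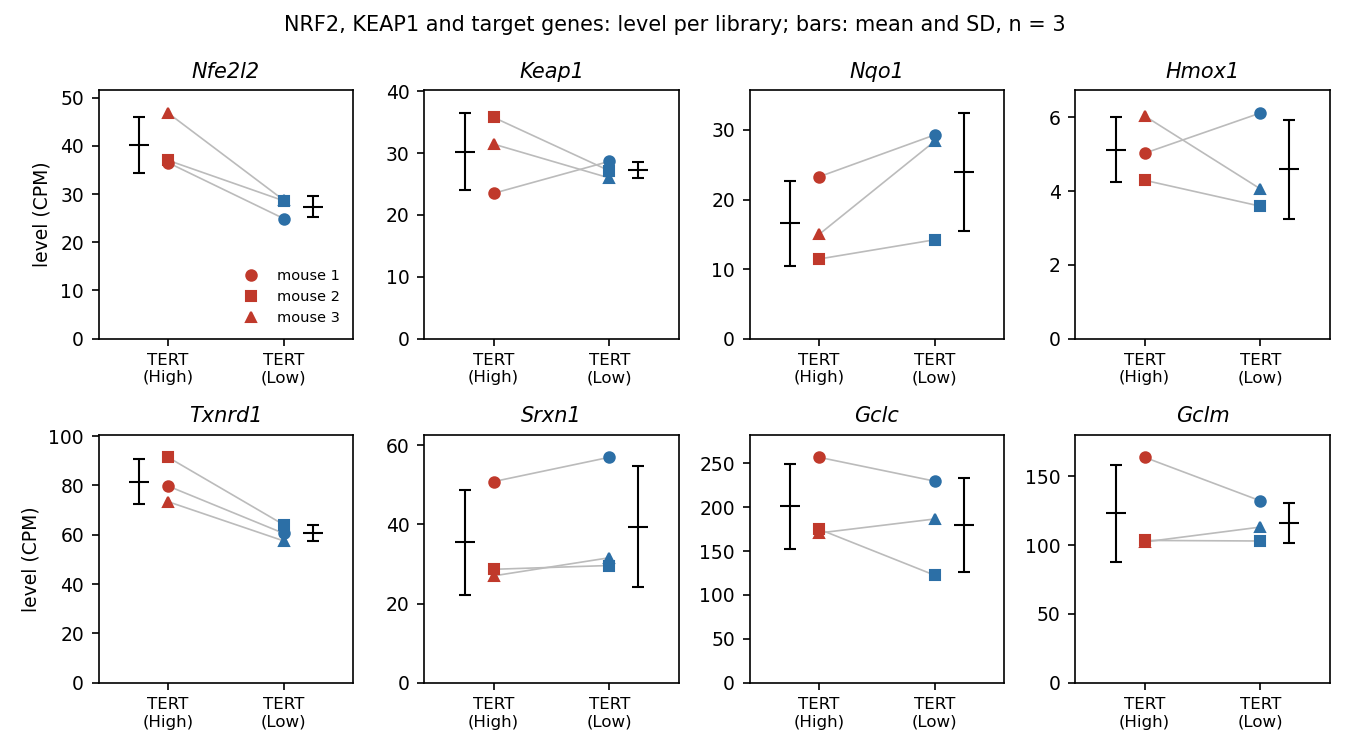
Level in CPM of Nfe2l2, Keap1 and 6 NRF2 target genes in each library, with grey lines joining the libraries of a mouse and bars for mean and SD of 3 libraries. Nfe2l2 and Txnrd1 have all TERT(High) values above all TERT(Low) values, and in the other 6 panels the groups overlap.

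NRF2 binds antioxidant response elements, and the letters of that motif were looked for upstream of the redox genes because these differed in direction. The search used TGACNNNGC on both strands of the 250 bases before each RefSeq gene start on GRCm38.p6. Some genes have several starts, and a gene was counted if any of its starts had a match. A match was present for 8 of the 43 redox genes with such a window, and for 11.5% of all genes with one. Shown are the stretches around the match, 5′ to 3′ on the strand of the gene, with the match in capitals. They come from Sod1, which fell, from Gclm, whose groups overlapped, and from Prdx1, Txnrd1 and Nfe2l2, whose groups were apart (Prdx1 below and the others above in TERT(High) cells) without passing the adjusted test. For Prdx1, Sod1, Txnrd1, Nfe2l2 and Gclm in turn they lie at chr4:116685445-116685495, chr16:90220685-90220735, chr10:82859093-82859143, chr2:75704874-75704913 (minus strand) and chr3:122245402-122245452.
Prdx1: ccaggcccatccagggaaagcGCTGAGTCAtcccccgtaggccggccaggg
Sod1: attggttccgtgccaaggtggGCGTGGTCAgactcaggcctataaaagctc
Txnrd1: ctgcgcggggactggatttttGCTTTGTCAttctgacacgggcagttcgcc
Nfe2l2: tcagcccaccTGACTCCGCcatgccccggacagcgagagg
Gclm: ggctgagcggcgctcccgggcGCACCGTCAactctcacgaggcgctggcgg
The other 3 genes with a match were Mt2, Txndc5 and Txndc11, so the match was found in genes of either direction. Txnrd1, Txndc5 and Txndc11 had a match at a single start and none at their other starts. For Txnrd1 that start lies inside the gene, and the window of its first start, chr10:82833701-82834000, had no match. The Gclm match shares bases with a match of the metal response element described with the metallothioneins. A match of these letters is not a measured binding site.

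Metallothioneins and Txnip varied between mice more than between the sorted populations. Mt1, a small cysteine-rich protein that binds zinc and copper, had 87.5, 221 and 44.0 CPM for TERT(High) libraries in the order of mice 1, 2 and 3 and 91.3, 288 and 60.4 CPM in TERT(Low) cells. Its close relative Mt2 had 24.7, 146.5 and 10.5 CPM against 27.6, 60.5 and 15.2 CPM. Mouse 2 was highest and mouse 3 lowest for both genes in either population. The TERT(High) library of mouse 2 stood out in balance as well, with a ratio of Mt2 to Mt1 counts of 0.663, where the other 5 libraries had 0.210 to 0.302. Neither gene passed the test (adjusted p = 0.811 for Mt1 and 0.631 for Mt2). Mt1 was lower in TERT(High) cells of each mouse, by log2 differences of -0.061, -0.38 and -0.45, and with the mouse as a block its log2 fold change was -0.30 with an SE of 0.14 (edgeR adjusted p = 0.196). Its direction turned with the coding length and GC correction, to 0.29 in log2. The coding length used for Mt1 was 396 nt, that of its longest coding sequence. Whether this is the main form in liver was not tested, and another length would change the corrected value. Txnip, an inhibitor of thioredoxin whose RNA follows glucose supply, had 35.2, 21.0 and 14.1 CPM against 47.5, 13.5 and 10.7 CPM, highest in mouse 1 and with no common direction (adjusted p = 0.982). The long noncoding gene Gm15441 lies across Txnip and had 130 to 826 counts, so Txnip reads may be shared with it. The letters of the metal response element, TGCACNC or TGCGCNC on both strands, were present in the 250 bases before the start of 10 of 43 redox genes, Mt1 and Mt2 among them, and of 23.8% of all genes.

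**Figure D5:**
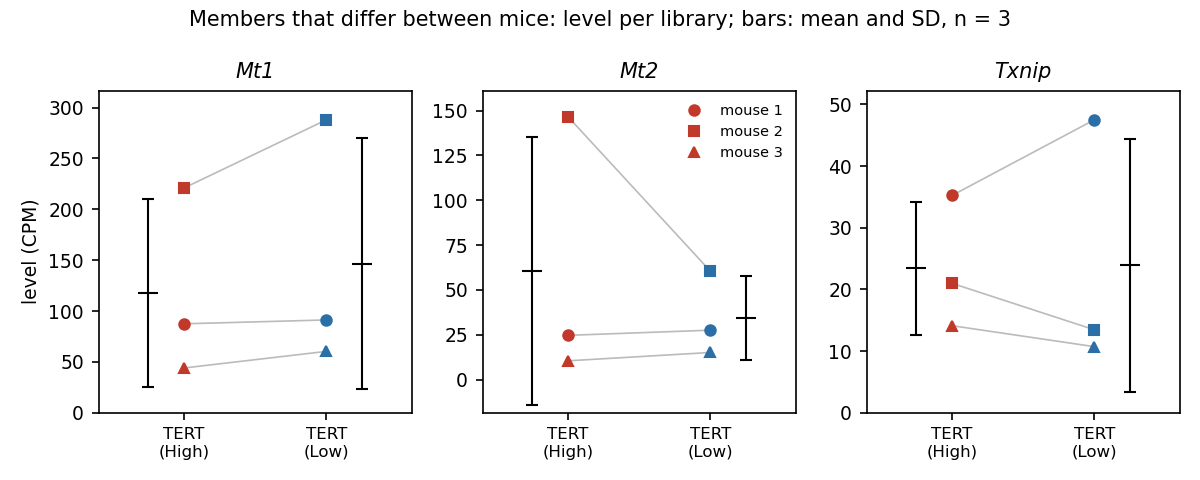
Level in CPM of Mt1, Mt2 and Txnip in each library, with grey lines joining the libraries of a mouse and bars for mean and SD of 3 libraries. Mouse 2 is highest for the metallothioneins and mouse 1 for Txnip, in TERT(High) and TERT(Low) cells alike.

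Methionine sulfoxide reductases repair oxidised methionine in proteins. The selenoprotein Msrb1 had 205, 247 and 219.5 CPM in TERT(High) and 303, 278 and 306 CPM in TERT(Low) cells, without overlap (log2 fold change -0.40, SE 0.14, adjusted p = 0.113, and 0.0188 by DESeq2). Its direction turned with the length and GC corrections, to 0.023 by transcript length and 0.23 by coding length in log2. Msra, which acts on the other stereoisomer, had 103, 152 and 148 CPM against 147, 145 and 169 CPM, with overlap.

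In the cytochrome b5 system, which passes electrons to fatty acid desaturases and some cytochrome P450 enzymes, the electron carrier fell and its reductase did not. Cyb5a (chromosome 18, 84851338 to 84879871) had 1150, 1175 and 1300 CPM in TERT(High) and 1818, 1836 and 2283 CPM in TERT(Low) cells. The groups were apart at 1208 ± 80.5 and 1979 ± 264 CPM (SD, n = 3), and the log2 fold change was -0.71 with an SE of 0.16 (adjusted p = 0.0468, and 0.0560 with no filter on low counts). Cyb5b, the form of the outer mitochondrial membrane, had 240 to 369 CPM with overlapping groups. Cyb5r3, the reductase that supplies them, had 235, 281 and 258 CPM against 195, 243 and 233 CPM, higher in each mouse but overlapping between mice (log2 fold change 0.21, SE 0.15, adjusted p = 0.433).

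Over the 8 redox genes with a selenocysteine codon, of which 7 were tested, 1 fell (Gpx4), Gpx1 and Msrb1 were wholly below and Txnrd1 wholly above. Of 21 other tested genes for selenoproteins and the selenocysteine machinery, 2 fell (9.52%) and 1 rose (4.76%), beside 3.71% and 4.43% of all genes. Selenow, a small selenoprotein, had 39.8, 42.1 and 38.4 CPM against 59.0, 72.5 and 64.2 CPM (log2 fold change -0.70, SE 0.14, adjusted p = 0.0366). Trnau1ap, which binds the selenocysteine transfer RNA, fell as well (log2 fold change -0.80, SE 0.16, adjusted p = 0.0376). Secisbp2l, a relative of the factor that recruits this transfer RNA, rose with 21.3, 24.2 and 29.5 CPM against 9.05, 9.64 and 9.73 CPM (log2 fold change 1.40, SE 0.17, adjusted p = 0.0274). After the coding length and GC correction the log2 fold changes were 0.014 for Selenow, -0.42 for Trnau1ap and 0.71 for Secisbp2l, none past the adjusted threshold. Selenop, the abundant selenium carrier secreted by the liver, had 5622 to 6767 CPM in TERT(High) and 5586 to 7776 CPM in TERT(Low) libraries, with overlap.

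The other genes of the pathway were read from 7 lists, none holding a redox gene named above. Among 127 tested genes of these lists 7 fell (5.51%, beside 3.71% of all genes) and 2 rose (1.57%, beside 4.43%). Of 31 other NRF2 targets 2 fell, Blvrb (log2 fold change -0.87, SE 0.16, adjusted p = 0.0335), a biliverdin and flavin reductase, and Taldo1 (log2 fold change -0.56, SE 0.13, adjusted p = 0.0461), the transaldolase of the pentose phosphate pathway. Of 13 genes of NADPH supply Pgls, the second enzyme of that pathway, fell (log2 fold change -0.86, SE 0.14, adjusted p = 0.0277). Of 14 NRF2 regulators Cul3, the scaffold of the ubiquitin ligase that KEAP1 serves, rose with 20.9, 17.6 and 22.2 CPM against 6.87, 7.03 and 10.1 CPM (log2 fold change 1.34, SE 0.21, adjusted p = 0.0277), and its ring subunit Rbx1 fell (log2 fold change -0.59, SE 0.12, adjusted p = 0.0392). Of 15 partners of cytochrome b5 Marc2, a molybdenum reductase, fell (log2 fold change -0.59, SE 0.13, adjusted p = 0.0475). After the coding length and GC correction none of these passed the adjusted threshold. Their log2 fold changes were then -0.36 (Blvrb), -0.32 (Taldo1), -0.42 (Pgls), 0.53 (Cul3), -0.18 (Rbx1) and -0.38 (Marc2). Of 19 genes of cysteine supply and glutathione turnover and 19 genes that respond to cell isolation, 0 passed by edgeR. At an unadjusted edgeR p below 0.05, 4 and 0 of them differed in either direction, where 12.4% of all genes were lower and 16.3% higher. By DESeq2 4 and 0 passed, where 9.6% of all genes were lower and 11.3% higher. With the mouse as a block, where 5.43% of all genes rose and 4.3% fell, 6 listed genes rose, adding Abcc2 (adjusted p = 0.0407), Scd1 (0.0482), Bach1 (0.0407) and Gsk3b (0.0450), and 9 fell, adding Gnmt (0.0420), Gstm4 (0.0428) and Gstm2 (0.0432), with Marc2 no longer among them (adjusted p = 0.0504). Gnmt, a methyltransferase that uses up S-adenosylmethionine, is on the list of cysteine supply and glutathione turnover. Bach1, a repressor at antioxidant response elements, had 22.1, 11.4 and 11.6 CPM in TERT(High) and 8.13, 5.52 and 6.37 CPM in TERT(Low) cells.

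The authors' deposited table lists 48 of the redox genes among its 10858 genes. At adjusted p under 0.05 there, 15 of them are lower and 1, Nfe2l2, is higher in the authors' deposited table. Over all its genes the authors' deposited table has 13.4% lower and 15.8% higher. The sign of the log2 fold change was that of the edgeR fit for 44 of the 48. For Gpx4, the authors' deposited table gives a log2 fold change of -0.98 with an adjusted p of 6.15e-08, and for Nfe2l2 of 0.51 with 0.0140.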

How the data were processed

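The data are 6 RNA-seq libraries of sorted hepatocytes, 3 TERT(High) and 3 TERT(Low), with each mouse giving 1 of both. Per the labels, RNA of the sorted cells was cleaned on RNeasy micro columns and went into stranded KAPA mRNA libraries. The genome mm10, DESeq2, TopHat2 2.0.13 and Trim Galore 0.4.0 are named, without their roles, per the submitters' processing notes. Which tool counted the reads, with what strand setting and annotation, is not given in the sources used here. Per the file headers, the deposited table holds raw counts by gene and library. The authors' second table holds their own comparison: per the file headers a signal value (baseMean, the mean count after scaling by size factors), a log2 fold change with its standard error, a linear fold change, a Wald score and p-values. From that table only the log2 fold change and adjusted p were used, as a description.

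The counts were fitted with edgeR 4.0.16 (R 4.3.3; filterByExpr, TMM, robust quasi-likelihood, group alone) over all genes, with Benjamini-Hochberg adjustment over all 13288 tested genes. CPM were scaled by TMM. The common biological coefficient of variation was 40.7%. DESeq2 1.42.0, limma 3.58.1 (voom), other scalings and filters, left-out libraries, and length and GC corrections (natural splines with 4 degrees of freedom) made up 22 alternatives, 2 of which were added after seeing the data. The labels say that libraries with the same number come from the same mouse; their deviations from the group means correlated at -0.089, 0.733 and 0.601 for mice 1, 2 and 3. Coordinates are RefSeq GRCm38.p6, and lengths are those of the GENCODE M21 transcript with the longest coding sequence (51 of 51 tested redox genes matched).

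The redox genes, the gene lists and the naming rule were chosen with earlier results of these data known. Named with values in every library are redox genes past the threshold, the 2 most abundant per kilobase in each role, and a fixed set of 18 landmark genes, in all 29; 10 more were named after their values were seen (Prdx3, Prdx4, Prdx6, Glrx5, Txnip, Gpx3, Txndc17, Txndc12, Txnl4b and Txndc16). P-values rest on 3 mice and treat libraries as independent unless a block is named. The level of Txnrd2, the mitochondrial thioredoxin reductase, is not reported here, though the gene is counted among the redox genes.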

Additional observations from a re-analysis of the deposited data

How the results depend on the processing

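The direction of the 6 lower genes held in all 22 alternatives, and their calls did not. With groups fully apart for all 6, a kept sign was largely fixed in advance for fits without a library or mouse. Of 51 tested redox genes the number lower was 1 with library totals as scaling, 14 with DESeq2 and 15 with limma-voom; the number higher was 2 with DESeq2 and 1 with limma-voom. The 4 length and GC corrections (by transcript or coding length, each alone and with the replicate block) were fitted to the 12548 genes with a length. They left 0 lower and 0 higher redox genes, 0 listed pathway genes and 0 genes in all, and the cause was not tested. Over all genes the number higher was 1111 with the strict filter of 1 CPM, 1508 with DESeq2 and 1373 with limma-voom, and the number lower was 799, 1276 and 1104 in the same order and 19 with library totals, a scaling that moves the median of all genes to 0.14. Of pathway genes 4, 9, 7 and 6 were higher with the strict filter, DESeq2, limma-voom and the replicate block, and 11, 14, 12 and 0 were lower with the strict filter, DESeq2, limma-voom and library totals. With the replicate block 8 redox genes were lower, and 721 genes of the table were higher and 571 lower. Leaving out 1 library or 1 mouse gave 0 to 9 lower redox genes, 0 to 937 higher and 0 to 713 lower genes in all, and 0 to 2 higher and 0 to 5 lower pathway genes. The median of the redox genes was -0.13 with library totals, -0.39 with limma-voom, -0.18 with the transcript length correction (-0.17 with the replicate block), -0.026 with the coding length correction (-0.064 with the block), and between -0.41 and -0.24 with a library or mouse left out. In the following, log2 fold changes that turned sign stand with their settings. With the transcript length correction, alone and with the block, they were 0.044 and 0.034 for Msra, 0.023 and 0.020 for Msrb1, 0.067 and 0.083 for Gss, -0.50 and -0.55 for Gclm and 0.30 and 0.30 for Mt1, and with the block 0.16 for Txnip. With the coding length correction, alone and with the block, they were 0.19 and 0.18 for Msra, 0.23 and 0.22 for Msrb1, -0.047 and -0.064 for Gclc, -0.017 and -0.021 for Gclm, 0.29 and 0.29 for Mt1, 0.40 and 0.38 for Srxn1, 0.060 and 0.26 for Txnip and 0.064 and 0.065 for Txnl4b. With limma-voom Gclc was -0.029, Gclm -0.11 and Mt2 -0.17, with library totals Srxn1 was 0.016 and Txnip 0.13, and with the replicate block alone Txnip was 0.20. Leaving out a library or mouse gave -0.11 to 0.38 for Gclc, -0.22 to 0.21 for Gclm, -0.075 to 0.43 for Hmox1, -0.023 to 0.34 for Keap1, -1.16 to 0.64 for Mt1, -0.97 to 1.51 for Mt2, -0.55 to 0.21 for Srxn1 and -0.50 to 0.95 for Txnip. With 3 libraries a group, an exact permutation test of a single gene could not go below p = 0.1. Genes under about 1 CPM (Gpx3, Gpx6, Sod3) are limited by their counts.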
